A study of Homo sapiens with 4 samples.

Results

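Mucus-layer genes were examined in the established human colon cancer cell line HT29, 10 in all: the membrane mucins MUC1 and MUC13, the gel-forming mucins MUC2, MUC5AC and MUC5B, the trefoil peptides TFF1, TFF2 and TFF3, the secretory chaperone AGR2 and the mucus protein FCGBP. They were chosen by name, and each of the 10 matched 1 of the 53617 gene identifiers in both deposited tables. The groups were HT29 cells given a miR-23b precursor, HT29 cells given its control, HT29 cells given an antimir against miR-23b and HT29 cells given its control, all at passages 12 to 13, transfected at 50 nM, with RNA taken after 48 h. A precursor adds the microRNA to the cell, whereas an antimir binds and blocks it. There was 1 library in each of the 4 groups, so the differences below have no replicate check and none was tested here.

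Mucus of the colon is made by goblet cells, which pack long O-glycosylated mucins into granules and release them with small trefoil peptides. Gel-forming mucins are cross-linked through disulfide bonds into polymers, whereas membrane mucins stay on the apical surface of epithelial cells. AGR2 is a protein disulfide isomerase of the endoplasmic reticulum that mouse goblet cells need to make Muc2, and FCGBP is a secreted protein that binds to the mucin gel. MicroRNAs repress mRNAs mainly through pairing of their seed, bases 2 to 8, with sites in the 3' UTR.

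The sequences below are the microRNA that the study changed and the 1 seed site found among these genes. The mature sequence (RefSeq, GRCh38.p14, chromosome 9, plus strand) has its seed in capitals, and the FCGBP stretch (GENCODE 29 transcripts, GRCh38, chromosome 19, minus strand) has the site in capitals.
hsa-miR-23b-3p: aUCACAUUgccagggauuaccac
FCGBP site: cacagaggccaAATGTGAgagcattgaata
The 7-base site AATGTGA was searched on the transcript strand in the longest annotated 3' UTR of each gene. FCGBP had 1 site in a 3' UTR of 167 bases, starting at base 128, and it was not followed by the A that would make it an 8-base site. All 10 genes were looked up there by symbol, and the identifier of FCGBP in the tables differs from that in GENCODE 29. MUC1, MUC5AC, MUC5B, MUC13, TFF1, TFF2, TFF3 and AGR2 had 0 sites in UTRs of 179 to 1304 bases. MUC2 had no coding transcript with a 3' UTR in that release and was not searched. Of 19573 protein-coding genes with a 3' UTR, 3530 held the site, in UTRs with a median of 1063 bases. A match of letters is a description and does not show binding.

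Expression is given as FPKM, fragments scaled to transcript length and library size, which allows levels of different genes to be compared per length. A gene's level was the sum over its transcript entries. AGR2 stood far above the other genes, at 1688 FPKM under the precursor and 1626 in the precursor control, and at 656 under the antimir and 604 in the antimir control. It took 93.5% of the summed FPKM of the 10 genes under the precursor and 94.3% in the precursor control, and 90.9% under the antimir and 90.6% in the antimir control. MUC13 came next, at 92.0 FPKM under the precursor and 78.8 in the precursor control and at 46.1 under the antimir and 37.0 in the antimir control. TFF3 lay between 7.89 and 12.6 FPKM over the 4 libraries and MUC5AC between 5.28 and 8.31, so the ranges of these neighbours overlapped. MUC1 lay between 1.47 and 3.86 FPKM and TFF1 between 0.815 and 1.36. TFF2 reached at most 1.10 FPKM, MUC2 0.509, MUC5B 0.441 and FCGBP 0.341. The main gel-forming mucin of the colon, MUC2, was thus below MUC5AC, a mucin of stomach and airway, in every library.

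**Figure D1:**
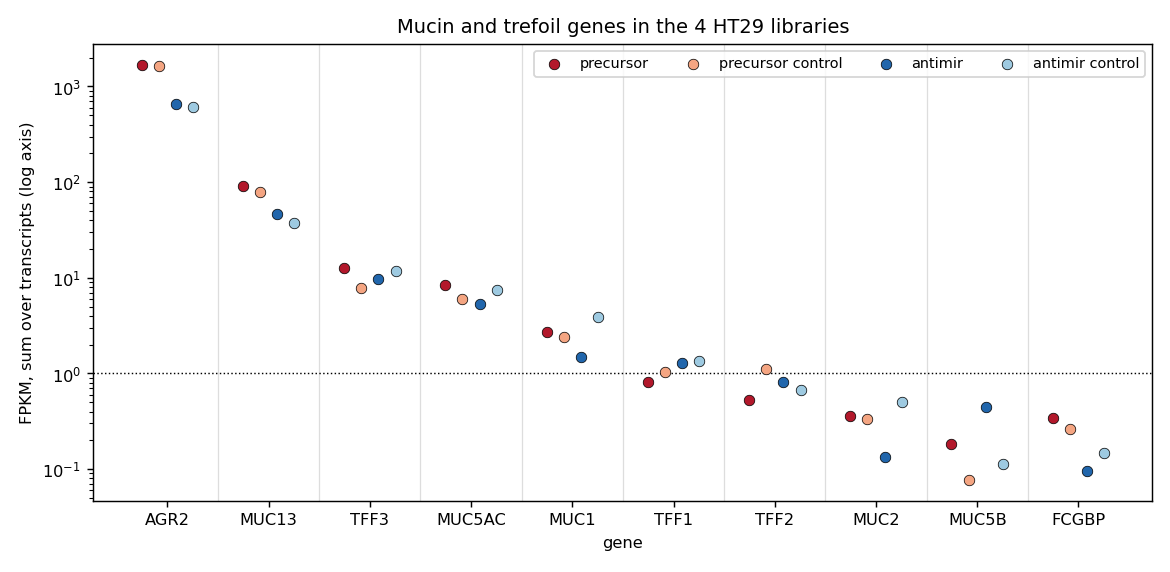
FPKM of each gene, summed over its transcripts, in the precursor, precursor control, antimir and antimir control libraries (1 point per library, log axis, dotted line at 1 FPKM). AGR2 lies between 604 and 1688 FPKM, while MUC2, MUC5B and FCGBP stay below 1 FPKM in all 4 libraries.

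The scaling of the 2 tables to each other is not stated, so levels set across them are descriptions only. Most of the listed epithelial genes were high. EPCAM was at 743 FPKM under the precursor and 689 in the precursor control, and at 577 under the antimir and 531 in the antimir control. The intestinal cadherin CDH17 stayed below 1 FPKM, between 0.181 and 0.519. GPA33 of the same list was also low, at 1.74 FPKM under the precursor and 1.12 in the precursor control. It was at 0.825 under the antimir and 0.844 in the antimir control. Of 11 markers of other cell types found, CD68 and CD14 reached a mean of 1 FPKM, and the highest of the others was COL1A1, at 0.816 FPKM or less. CD68 was at 5.59 FPKM under the precursor and 4.18 in the precursor control, and CD14 was at 2.76 FPKM under the precursor and 1.74 in the precursor control. The CD14 difference was 0.43 by the sum and -0.31 by its leading transcript, on the centred log2 scale described below. The list summed to 9.48 FPKM under the precursor against 6.82 in the precursor control, and to 7.67 under the antimir against 6.80. The leukocyte gene PTPRC was listed at 0 in both libraries of the precursor table and at 0 under the antimir and 0.00645 in the antimir control. The part of these markers in the results was not tested. In RNA of a whole culture, fewer cells of a type and less RNA per cell cannot be told apart.

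The precursor comparison asks which of these genes differ when miR-23b is raised. Each difference below is log2(FPKM + 1) under treatment minus that under the control, centred on the median of all genes at a mean of at least 1 FPKM over both, a scale that understates the change of low genes. Counts past 1.5-fold below are made on this scale. At a mean of at least 1 FPKM, 5 of the 10 genes could be read, and all 5 lay above 0, by 0.03 to 0.60, with a median of 0.20. TFF3 was the 1 gene at least 1.5-fold higher and 0 were at least 1.5-fold lower. Among all 16982 genes, 3.36% were that much higher and 3.32% lower, and among 11346 protein-coding genes 1.15% were past 1.5-fold either way. The central 95% of all genes spanned -0.76 to 0.89, and each of the 5 genes lay inside it.

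The antimir comparison asks the same when miR-23b is blocked. Here 6 of the 10 genes reached a mean of 1 FPKM, 3 above 0 and 3 below, with a median of -0.11. MUC1 was the 1 gene at least 1.5-fold lower (-0.94), and 0 were that much higher. Among all 14190 genes, 5.07% were at least 1.5-fold higher and 2.90% lower, and among 11060 protein-coding genes 2.63% were past 1.5-fold either way. MUC1 alone lay outside the central 95% of all genes, -0.65 to 1.58. Of the 5 genes readable in both comparisons, 3 (MUC1, MUC5AC and TFF3) were above 0 with the precursor and below 0 with the antimir, and 0 had the opposite pattern. Among 13757 genes these patterns took 28.7% and 28.4%. Several directions turned with the transcripts counted. With coding or unmatched transcripts alone, MUC1 (-0.30), MUC13 (-0.11), TFF3 (-0.67) and AGR2 (-0.13) lay below 0 in the precursor comparison. MUC5AC had 0.36 there, but all its entries are unmatched in GENCODE 29, so none could be dropped. MUC1 then had a mean under 1 FPKM and was no longer among the readable genes, which numbered 4.

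**Figure D2:**
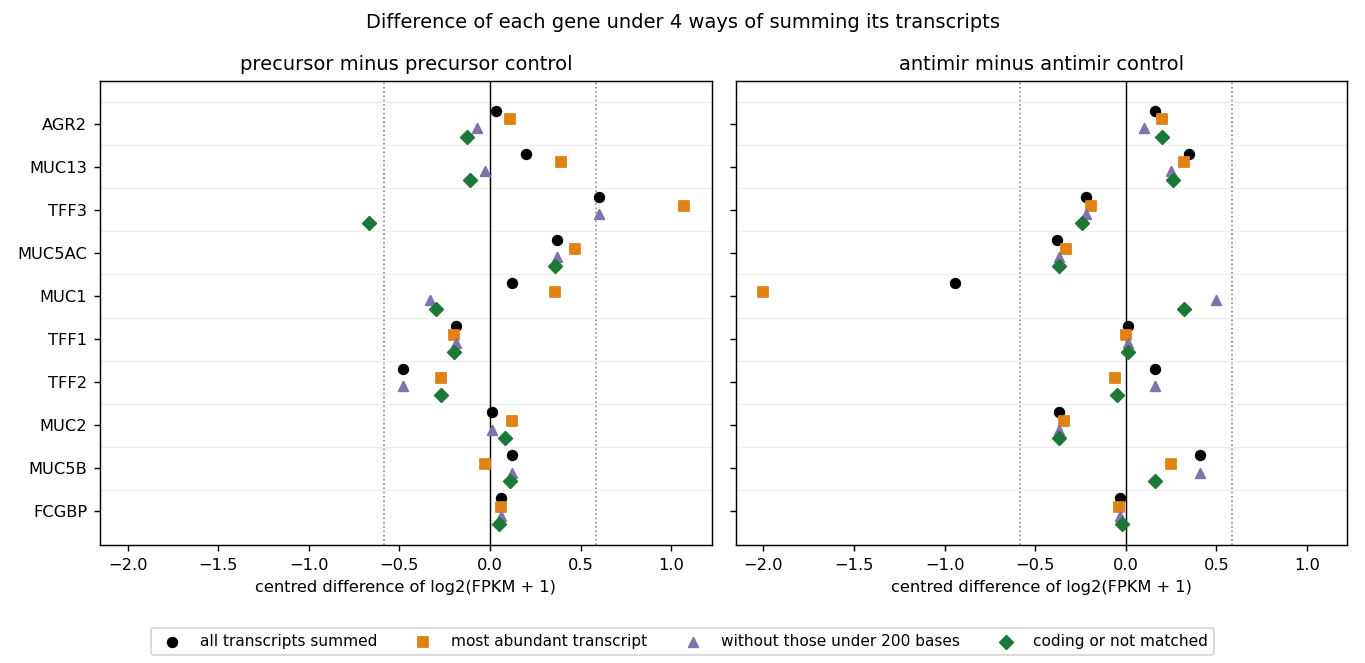
Centred difference of log2(FPKM + 1) for each gene in the precursor comparison (left) and the antimir comparison (right), with all transcripts summed, the most abundant transcript alone, without transcripts under 200 bases, and with coding or unmatched transcripts alone. Dotted lines mark 1.5-fold. TFF3 lies at 0.60 by the sum and -0.67 by coding transcripts in the precursor comparison. MUC1 lies at -0.94 by the sum and 0.50 without short transcripts in the antimir comparison. MUC5AC keeps its side of 0, but its entries are all unmatched, so the choices by length and type drop none of them.

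The 10 genes held 64 transcript entries, of which 45 had an identifier in GENCODE 29 that gave a length and a type. None of the 64 had failed in the authors' quantification, and 11 were listed at 0 in all 4 libraries. In the authors' deposited table, 7 of these transcripts were called significant in the precursor comparison, 4 higher and 3 lower. That table called 6.91% of 78175 tested transcripts higher and 6.66% lower, with 24 transcripts of these genes among those tested. The authors' deposited table for the antimir called 0 of the 20 tested transcripts of these genes, where 0.243% of 62029 were called higher and 0.171% lower. The authors' q-values compare 2 libraries and not 2 conditions.

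Among membrane mucins, MUC13 is the abundant surface mucin of the intestine. Its level was spread over 5 transcripts. ENST00000311075 was at 24.1 FPKM under the precursor and 24.1 in the precursor control, and at 32.8 under the antimir and 26.6 in the antimir control. The coding transcript MUC13-202 was at 13.6 under the precursor and 15.7 in the precursor control, and at 10.3 under the antimir and 10.4 in the antimir control. These 2 transcripts were thus alike or slightly lower with the precursor and alike or higher with the antimir. The largest entry of the precursor table was a different one. MUC13-201, typed as a retained intron and 134 bases long, was at 52.2 FPKM under the precursor and 38.8 in the precursor control, but at 3.02 under the antimir and listed at 0 in the antimir control. It made up 56.7% of the gene's FPKM under the precursor and 6.54% under the antimir.

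MUC13-201 is shown whole because it decided the gene's sum. It lies on the minus strand of chromosome 3 (GENCODE 29, GRCh38), and capitals mark its 67 bases that are coding sequence in other MUC13 transcripts. The other 67 bases are in no coding transcript.
MUC13-201: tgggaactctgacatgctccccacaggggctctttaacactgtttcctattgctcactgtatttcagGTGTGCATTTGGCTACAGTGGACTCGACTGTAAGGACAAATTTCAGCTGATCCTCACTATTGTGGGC
The summed MUC13 difference was 0.20 with the precursor and 0.35 with the antimir. Without transcripts under 200 bases these were -0.03 and 0.25, and the gene was at 39.8 FPKM under the precursor against 40.0, and at 43.1 under the antimir against 37.0. The authors' deposited table called 1 MUC13 transcript higher with the precursor, the retained-intron MUC13-203, with 1.94 FPKM against a control value listed as 0 (q = 1.66e-04). In hg19 the MUC13 locus spans chromosome 3, 124624288 to 124672663.

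MUC1, the cell-surface mucin that also signals through its cytoplasmic tail, was at 2.74 FPKM under the precursor and 2.40 in the precursor control, and at 1.47 under the antimir and 3.86 in the antimir control. The antimir library was therefore the lowest of the 4 and its control the highest. A single entry held most of this. MUC1-215, a processed transcript of 177 bases, was at 2.07 FPKM under the precursor and 1.34 in the precursor control, and was listed at 0 under the antimir with 3.07 in the antimir control. Without it MUC1 was at 0.667 FPKM under the precursor against 1.06, and at 1.47 under the antimir against 0.794. The differences were then -0.33 and 0.50, each opposite in sign to that of the sum (0.12 and -0.94), though in the precursor comparison the mean was then under 1 FPKM. In the authors' deposited table MUC1-205 was called lower with the precursor, listed at 0 there and at 0.678 FPKM in the control (q = 0.0404). Of the 23 MUC1 entries, 9 were above 0 under the precursor and 5 in the precursor control, against 7 under the antimir and 4 in the antimir control. Of the 177 bases of MUC1-215, 176 lie in exons of coding MUC1 transcripts, and how reads were shared out among these entries was not tested. The tables place MUC1 (ENSG00000185499.11) on chromosome 1, 155141883 to 155162707 in hg19, in a locus shared by 3 genes.

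The gel-forming mucins MUC2, MUC5AC and MUC5B stand side by side on chromosome 11. MUC5AC was the only one at a mean of 1 FPKM in either comparison. It was at 8.31 FPKM under the precursor against 6.07 in the precursor control (0.37), and at 5.28 under the antimir against 7.37 in the antimir control (-0.38). Its main transcript ENST00000358378 was at 6.76 against 4.48 FPKM with the precursor, which the authors' deposited table called higher (q = 2.56e-05), and at 3.90 against 5.30 with the antimir, which it did not call (q = 0.902). The second transcript, ENST00000534821, was at 1.55 against 1.59 with the precursor and at 1.38 against 2.07 with the antimir. Both transcripts were lower under the antimir than in the antimir control, whereas in the precursor comparison the main transcript alone was higher. The third entry was listed at 0 in all 4 libraries. Neither expressed transcript has its identifier in GENCODE 29, so no length is given. In hg19 the MUC5AC locus spans chromosome 11, 1151579 to 1222364.

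MUC2, at chromosome 11, 1074874 to 1104419 in hg19, was at 0.363 FPKM under the precursor and 0.332 in the precursor control, and at 0.135 under the antimir and 0.509 in the antimir control. Its transcript ENST00000441003 was at 0.266 against 0.139 FPKM with the precursor and was called higher in the authors' deposited table (q = 0.0165), and was at 0.112 against 0.191 with the antimir, where it was not tested. In the antimir control, 59.4% of the MUC2 level came from ENST00000333592, at 0.302 FPKM there against 0.00789 under the antimir, an entry the authors marked as having too little data. MUC5B, the gel-forming mucin of airway and gallbladder, was at 0.185 FPKM under the precursor and 0.0769 in the precursor control, and at 0.441 under the antimir and 0.112 in the antimir control. Its retained-intron form MUC5B-205 was at 0.166 FPKM under the antimir and listed at 0 in the other 3 libraries. None of its 12 transcripts was tested by the authors in either table. The tables place MUC5B on chromosome 11, 1244295 to 1284402 in hg19, in a locus shared by 2 genes. FCGBP, with 1 transcript, was at 0.341 FPKM under the precursor and 0.264 in the precursor control (q = 0.110 in the authors' deposited table), and at 0.0964 under the antimir and 0.147 in the antimir control. It was the 1 searched gene with a seed site, and it was too low to be read at a mean of 1 FPKM. Its differences were 0.06 with the precursor and -0.03 with the antimir, or 0.25 and -0.29 with a pseudocount of 0.1, and the ratios of FPKM were 1.29 and 0.655. Its locus spans chromosome 19, 40353963 to 40440533 in hg19.

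The trefoil peptides protect and repair the mucosa, and TFF3 is the one typical of intestinal goblet cells. TFF3 was at 12.6 FPKM under the precursor and 7.89 in the precursor control (0.60), and at 9.82 under the antimir and 11.9 in the antimir control (-0.22). The precursor library was the highest of the 4 and its own control the lowest. The sign of the precursor difference was set by TFF3-203, a processed transcript of 419 bases. It was at 10.9 FPKM under the precursor and 4.54 in the precursor control, which the authors' deposited table called higher (q = 0.00167). With the antimir it was at 8.11 against 9.63 FPKM. The 3 coding transcripts together were lower, at 1.79 FPKM under the precursor against 3.35 in the precursor control, and at 1.71 under the antimir against 2.30 in the antimir control. Their difference in the precursor comparison was -0.67, past 1.5-fold in the direction opposite to the sum.

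Of the coding TFF3 transcripts, TFF3-202 was listed at 0 under the precursor and at 1.49 FPKM in the precursor control, a difference that the authors' deposited table called lower (q = 0.0214), and was listed at 0 under the antimir and in the antimir control. TFF3-201 was at 0.652 FPKM under the precursor and 1.02 in the precursor control, and at 1.29 under the antimir and 2.30 in the antimir control. The authors marked that entry as having too little data in both comparisons. TFF3-204 was at 1.14 FPKM under the precursor and 0.835 in the precursor control, and at 0.419 under the antimir and listed at 0 in the antimir control. TFF3-203, called higher, and TFF3-202, called lower, share 408 bases. Only 11 of the 419 bases of TFF3-203 are absent from TFF3-202, and 44 of the 452 bases of TFF3-202 are absent from TFF3-203. How fragments from the shared sequence were divided between the 2 entries was not tested.

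TFF1 and TFF2, the trefoil peptides typical of the stomach, were low. TFF1, with 1 coding transcript, was at 0.815 FPKM under the precursor and 1.04 in the precursor control, and at 1.30 under the antimir and 1.36 in the antimir control. TFF2 as a sum was at 0.531 FPKM under the precursor and 1.10 in the precursor control (-0.48), and at 0.823 under the antimir and 0.674 in the antimir control (0.16). Its coding transcript TFF2-201 was at 0.531 FPKM under the precursor and 0.806 in the precursor control, and at 0.572 under the antimir and 0.674 in the antimir control. The summed FPKM of coding transcripts was lower in the treated library of each pair for all 3 trefoil genes. How many of all genes share this pattern was not counted. For TFF3 with the antimir it rested on TFF3-201 alone, an entry marked as having too little data, while TFF3-204 was higher. On the centred scale TFF1 differed by -0.19 with the precursor and 0.01 with the antimir. The authors' deposited table called no transcript of TFF1 or TFF2. The tables give the 3 genes a single shared locus, chromosome 21, 38435145 to 45747259 in hg19, in common with 159 genes in all, so this span is not the position of any one of them.

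**Figure D3:**
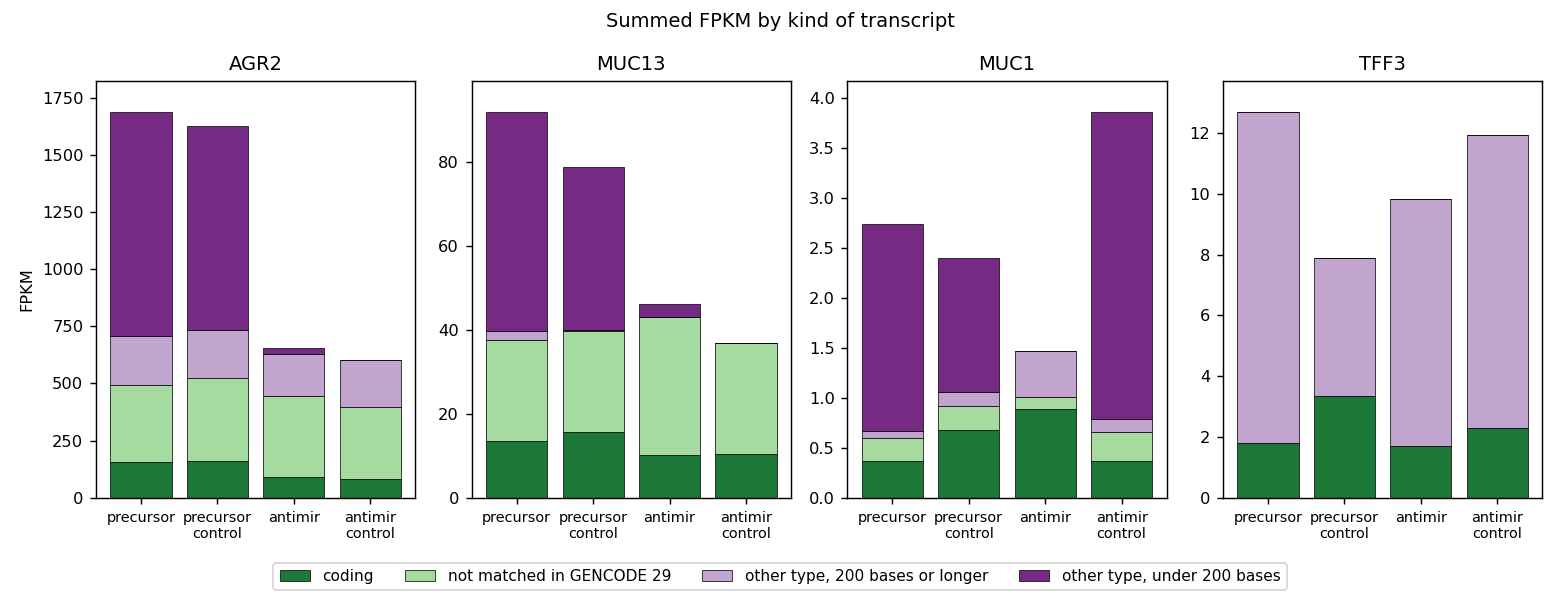
FPKM of AGR2, MUC13, MUC1 and TFF3 in the 4 libraries, stacked by kind of transcript in GENCODE 29 (1 bar per library). Entries under 200 bases make up 58.0% of AGR2 under the precursor and 3.84% under the antimir, and TFF3 is mostly a processed transcript, at 85.9% under the precursor against 57.6% in the precursor control.

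AGR2, at chromosome 7, 16831434 to 16873057 in hg19, had 8 transcripts, all tested by the authors in the precursor table. The most abundant entry there was AGR2-206, a processed transcript of 117 bases, at 979 FPKM under the precursor and 892 in the precursor control. In the antimir library the same entry was at 25.2 FPKM and in the antimir control it was listed at 0. Without it, AGR2 was at 708 FPKM under the precursor and 734 in the precursor control, and at 631 under the antimir and 604 in the antimir control. The gap between the tables was then narrower. The coding transcript AGR2-202 also differed between them, at 67.0 FPKM in both libraries of the precursor table and listed at 0 in both of the antimir table. AGR2-206 has 61 bases in untranslated exon sequence of coding AGR2 transcripts and 56 bases in none. Those 56 bases, its second exon, are shown because they are the part that sets this entry apart (GRCh38, chr7:16803145-16803200, minus strand).
AGR2-206, second exon: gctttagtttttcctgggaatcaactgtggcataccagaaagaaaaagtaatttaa
ENST00000419572, the largest of the longer AGR2 transcripts by FPKM, was at 337 FPKM under the precursor and 363 in the precursor control, and at 353 under the antimir and 314 in the antimir control. The coding transcript AGR2-201 was at 53.4 against 55.0 with the precursor and at 58.5 against 54.9 with the antimir. The summed AGR2 differences were 0.03 and 0.16, and with coding or unmatched transcripts alone they were -0.13 and 0.20. None of these reached 1.5-fold. The authors' deposited table called 1 transcript lower with the precursor, the minor coding form AGR2-204, at 0.228 against 1.76 FPKM (q = 0.0254). It also called lower an entry under the AGR2 gene identifier that is left out of the sums, at 0.232 against 0.329 FPKM (q = 0.00240).

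Transcripts under 200 bases, as a class of all genes, were past 1.5-fold more often than longer ones in these libraries. At a mean of 1 FPKM, 55.6% of 576 such transcripts were past 1.5-fold either way in the precursor comparison, against 11.1% of 47532 longer ones. In the antimir comparison the shares were 73.3% of 375 and 19.9% of 35959. They took 17.2% of all transcript FPKM under the precursor and 15.3% in the precursor control, and 12.1% under the antimir and 13.8% in the antimir control. The short entries of AGR2, MUC13 and MUC1 belong to the class under 200 bases, with differences of 0.11, 0.40 and 0.37 in the precursor comparison. None was past 1.5-fold on the centred scale, though the FPKM ratio of the MUC1 entry was 1.55. In the antimir comparison each was listed at 0 in 1 library of the pair.

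Other genes of mucus production were read from lists and are described by counts. Of 13 other mucins found, 3 reached a mean of 1 FPKM, and on the centred scale 0 were past 1.5-fold in either comparison. By FPKM alone, MUC3A was past it with the antimir. MUC20, a membrane mucin, was at 34.8 FPKM under the precursor against 26.3 (0.37), and at 14.1 under the antimir against 18.4 (-0.33). With coding or unmatched transcripts these differences were 0.44 and -0.04. MUC12 was at 1.52 against 1.12 with the precursor (0.23, but -0.04 by its leading transcript and -0.02 with coding or unmatched transcripts). With the antimir it was at 1.52 against 1.58 (0.01, and -0.31 by its leading transcript). MUC3A was at 1.66 against 1.48 with the precursor (0.08; its leading transcript, -0.15) and at 0.890 against 1.48 with the antimir (-0.35).

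Transcription factors of the secretory lineage were mostly above 0 with the precursor and mostly below 0 with the antimir. Of the 11 readable, 9 lay above 0 and 2 below in the precursor comparison (median 0.06), and 2 above and 9 below in the antimir comparison (median -0.16). The epithelial identity list had the same pattern, with 9 of 9 genes above 0 in the precursor comparison (median 0.09) and 5 of 8 below in the antimir comparison (median -0.09). By construction of the centring, as many genes overall lie above 0 as below it, and 0 of the 11 transcription factors were past 1.5-fold in either comparison. CREB3L1, a membrane-bound factor of secretory cells, was at 97.8 FPKM under the precursor against 79.2 (0.28), and at 47.2 under the antimir against 61.1 (-0.33). SPDEF, which drives goblet cell maturation, was at 17.9 against 15.5 with the precursor (0.17) and at 13.1 against 15.3 with the antimir (-0.17). SOX9 was at 35.3 against 29.9 with the precursor (0.21) and at 28.4 against 32.6 with the antimir (-0.16). FOXA2 was at 2.22 against 2.86 with the antimir (-0.23), while its leading transcript alone had 0.20. ATOH1, the factor that commits cells to the secretory lineage, stayed below 1 FPKM, at 0.632 under the precursor and 0.692 in the precursor control, and at 0.674 under the antimir and 0.554 in the antimir control.

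Among other goblet cell and mucus proteins, 11 of 17 found could be read. Of these, 7 lay above 0 in the precursor comparison (median 0.13) and 6 in the antimir comparison (median 0.00). On the centred scale 0 were past 1.5-fold in either. By FPKM alone, KLK12, KLK1 and RETNLB were past it with the precursor, and KLK12 with the antimir. The kallikreins KLK12 and KLK1 had the largest differences with the precursor, at 2.47 against 1.49 FPKM (0.46) and 2.71 against 1.69 (0.45). With the antimir KLK12 was at 1.38 against 2.15 (-0.36) and KLK1 had a difference of 0.29. RETNLB, an antibacterial protein of goblet cells, was at 1.90 against 1.13 with the precursor (0.43) and at 1.60 against 2.17 with the antimir (-0.25). AGR3, the paralog of AGR2, was at 61.4 FPKM under the precursor against 64.7 (-0.10), and at 54.6 under the antimir against 46.6 (0.26). ERN2, the stress sensor of mucous epithelia, was at 5.59 against 7.35 with the antimir (-0.30 by the sum, -0.06 by its leading transcript and 0.21 with coding or unmatched transcripts), so its direction turned. The goblet products ZG16 and ITLN1 were listed at 0 in all 4 libraries.

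Enzymes that build O-glycans on mucins had medians of 0.03 in both comparisons, over 18 genes with the precursor and 17 with the antimir, and 0 were past 1.5-fold. B3GNT3, an N-acetylglucosaminyltransferase, was at 12.5 against 9.67 FPKM with the precursor (0.32), and GALNT3, which starts O-glycan chains, at 112 against 96.3 (0.19). With the antimir FUT2, a fucosyltransferase, was at 8.73 against 6.58 (0.40, -0.09 by its leading transcript) and GALNT7 at 46.9 against 57.8 (-0.26). Of 18 genes of the secretory pathway and granule release, 16 lay above 0 with the precursor (median 0.10) and 7 with the antimir (median -0.04). On the centred scale 0 were past 1.5-fold. By FPKM alone, ERN1 was near 1.5-fold lower with the antimir, at 1.44 against 2.17 (-0.34). SYT7, a calcium sensor of exocytosis, was at 9.43 against 7.30 with the precursor (0.31), and PDIA5, a disulfide isomerase, at 22.4 against 16.3 with the antimir (0.47, 0.04 by its leading transcript).

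**Figure D4:**
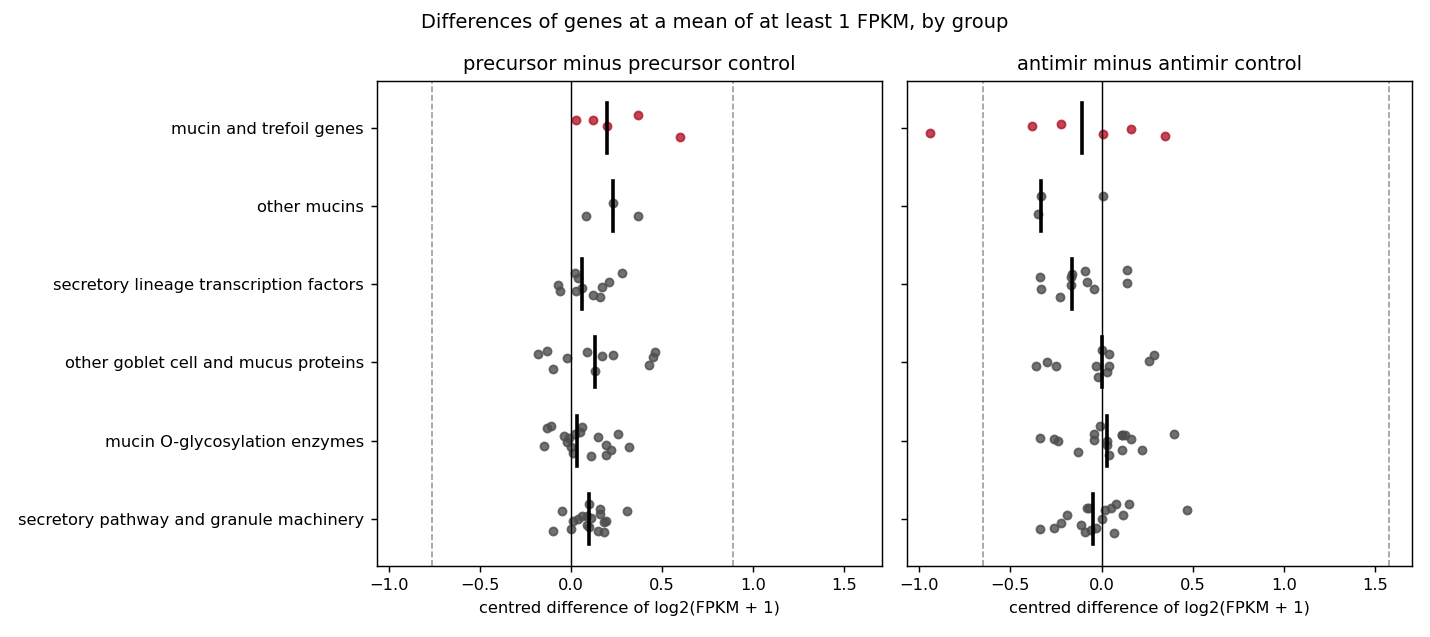
Centred difference of log2(FPKM + 1) for every gene at a mean of at least 1 FPKM in 6 groups, in the precursor comparison (left) and the antimir comparison (right). Each point is a gene, black bars are group medians, and dashed lines bound the central 95% of all genes (-0.76 to 0.89 and -0.65 to 1.58). MUC1 in the antimir comparison is the only point outside them.

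Among markers of enteroendocrine and Paneth cells, LYZ stood apart in level. LYZ, the lysozyme of Paneth cells, was at 3606 FPKM under the precursor and 3685 in the precursor control, and at 3354 under the antimir and 3588 in the antimir control. It was the 1 of these 10 markers at a mean of 1 FPKM, and the Paneth defensin DEFA5 was listed at 0 in all 4 libraries.

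The gene of the 10 with the largest summed size of both differences was MUC1. By distance between the pairs of differences, among 10970 protein-coding genes readable in both comparisons, the nearest to MUC1 (0.12 and -0.94) were PTPN23 (0.11 and -0.96), PLS3 (0.04 and -0.92), FERMT3 (0.13 and -0.86), SMAD5 (0.08 and -0.85) and THBS1 (0.23 and -0.97). This likeness covers 4 libraries and rests on the MUC1 sum that its 177-base entry decided. PLS3 was at 179 FPKM under the precursor and 171 in its control, but at 1.56 under the antimir and 3.98 in its control. SMAD5 was at 33.4 and 31.2 in the first pair and 3.38 and 7.13 in the second. Levels of PTPN23, FERMT3 and THBS1 differed less between the pairs. Which transcripts carried these sums was not tested.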

How the data were processed

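RNA was sequenced from 4 HT29 libraries. Per the submitters' processing notes, bcl2fastq 1.8.3, TopHat2 2.0.11, Cufflinks 2.2.0 and Cuffdiff were used with hg19; their settings and annotation are not stated there. The authors' deposited data are 2 tables of FPKM per transcript entry, each with 1 treated library and 1 other library named with a final N, taken as its control. Per the file headers, the tables also hold the authors' p-values and q-values; their fold column runs control over treated and was not used. Depth is unknown from FPKM, so no counting interval is given.

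Entries with a failed status (1321 and 1528) were left out, as were gene-identifier entries of genes that have transcripts. Gene sums were compared as log2(FPKM + 1), centred on the median of genes at a mean of at least 1 FPKM (medians removed 0.022 and -0.038). Lengths and types came from GENCODE 29 by identifier, and the 3' UTRs of the 10 genes by symbol. The coordinates of that release are not those of hg19. Python 3.11.15 and pandas 2.3.3 were used, and the calculation was checked on simulated data. That check had no noise and planted changes in highly expressed genes only, so it does not cover low genes. All 10 genes were named. Transcripts were named if most abundant, called by the authors or past 1.5-fold at a mean of 1 FPKM, and of each list up to 4 genes with the largest differences; ATOH1, AGR3 with the precursor, CDH17, ZG16, ITLN1, DEFA5, PTPRC, COL1A1 and MUC5B-205 were named after their values were seen. The members and lists were chosen with earlier results of these data known. Alternatives were pseudocount, filter, transcript choice, status, gene-identifier entries, centring and fold, with transcript length and type added later. Some list genes and sequences are not reported here.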

Additional observations from a re-analysis of the deposited data

How the results depend on the processing

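No paired analysis was possible because each group held 1 library, and for the same reason no library could be left out. With no replicate spread, a value was taken as shifted when it differed by at least 0.1 on the log2 scale. The 2 alternatives on transcript length and type were chosen after seeing the data. In the precursor comparison the median of the readable genes, 0.20, became 0.39 with the most abundant transcript alone and -0.12 without transcripts typed other than coding. There the count of genes at least 1.5-fold higher became 0 and the count lower 1, since TFF3 turned to -0.67. In the antimir comparison the count of genes at least 1.5-fold lower became 0 at a mean of 5 FPKM, without transcripts under 200 bases and without those typed other than coding. The median, -0.11, became 0.05 and 0.01 under those last 2 settings, where MUC1 turned to 0.50 and 0.32; at 0.32 it had a mean under 1 FPKM and is not in the median, which then covered 5 genes. At 2-fold on the centred scale both counts of 1 became 0, though the FPKM ratio of MUC1 in the antimir comparison was 0.379. MUC5AC kept its direction in both comparisons under every alternative run. The alternatives on transcript length and type could not drop its entries, none of which is matched in GENCODE 29. Keeping failed entries, adding gene-identifier entries, leaving out the centring, dropping the filter and raising it to 5 FPKM each shifted 0 of the 20 gene differences by that much. A pseudocount of 0.1 and the most abundant transcript alone each shifted 9 of 20, and tested transcripts alone 6 of 16. With that pseudocount the antimir differences of MUC1, MUC2 and MUC5B became -1.30, -1.33 and 1.40, and the precursor difference of TFF2 became -0.95. FPKM without counts limits what can be said of the 5 genes near or below 1 FPKM.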
